A study of Homo sapiens with 12 samples.

Results

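DPPA5, KHDC3L, OOEP, KHDC1 and KHDC1L are neighbouring protein-coding genes on the long arm of chromosome 6. They are the 5 members of a cluster that was selected on its LAD coverage, among 19974 protein-coding genes on the 22 autosomes and X, as lying in lamina-associated domains (LADs) of primed but not of naive cells. LADs are regions of chromosomes in contact with the nuclear lamina, the protein mesh under the nuclear envelope. The cells were H9, an established human embryonic stem cell line, untreated, kept in mTeSR medium for the primed state and in RSeT medium for the naive state. LADs were mapped by pA-DamID, in which an antibody against the lamina protein LMNB1 brings a protein A fusion of the Dam methylase to the lamina, where it marks nearby GATC sites. Each state has 3 LMNB1 libraries and 3 libraries made with untethered Dam as a control for accessibility, 12 in all. The labels do not say whether the 3 came from separate cultures. For each state the series gives 1 list of LAD intervals, built from 10 kb windows, with no score, signal or read number, so the depth behind a window is unknown. With 1 list per state there are no replicate values, and no difference between the states was tested. No expression was measured, so the states are those of the labels.

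These genes encode small proteins with a KH domain, a fold that in many proteins binds RNA, and the family is a mammalian one that is active in oocytes and early embryos. OOEP and KHDC3L belong to the subcortical maternal complex, a protein assembly under the oocyte membrane that the early embryo needs; maternal loss of KHDC3L is a known cause of recurrent hydatidiform mole. DPPA5 is transcribed in pluripotent cells and is used as a marker of naive pluripotency. KHDC1 is transcribed in oocytes, and KHDC1L is a related gene next to it. Genes at the lamina are, in general, transcribed little.

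The assay can mark DNA only at GATC, so the promoters are shown first, as RefSeq gives them on GRCh38.p14, from 250 bases before to 50 bases after a listed gene start. The table lists 6 starts for the 5 genes, 2 of them for KHDC1. The sequences read 5′ to 3′ in the direction of the gene, in order along the chromosome. Capitals mark GATC and the GC box, GGGCGG or CCGCCC on the strand shown, which factors of the SP and KLF families bind.
KHDC1L, minus strand, chr6:73225447-73225746: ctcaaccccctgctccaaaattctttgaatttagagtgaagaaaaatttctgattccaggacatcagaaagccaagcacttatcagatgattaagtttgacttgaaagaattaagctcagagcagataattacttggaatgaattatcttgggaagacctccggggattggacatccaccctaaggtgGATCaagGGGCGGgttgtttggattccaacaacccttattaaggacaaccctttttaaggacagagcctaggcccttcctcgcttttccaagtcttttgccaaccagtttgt
KHDC1, internal start, minus strand, chr6:73263147-73263446: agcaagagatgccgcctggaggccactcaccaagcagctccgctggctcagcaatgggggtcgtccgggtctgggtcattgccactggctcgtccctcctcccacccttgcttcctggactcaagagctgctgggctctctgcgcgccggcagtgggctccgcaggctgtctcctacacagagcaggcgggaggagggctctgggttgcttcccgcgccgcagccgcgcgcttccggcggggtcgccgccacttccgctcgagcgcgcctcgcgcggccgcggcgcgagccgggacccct
KHDC1, upstream start, minus strand, chr6:73310110-73310409: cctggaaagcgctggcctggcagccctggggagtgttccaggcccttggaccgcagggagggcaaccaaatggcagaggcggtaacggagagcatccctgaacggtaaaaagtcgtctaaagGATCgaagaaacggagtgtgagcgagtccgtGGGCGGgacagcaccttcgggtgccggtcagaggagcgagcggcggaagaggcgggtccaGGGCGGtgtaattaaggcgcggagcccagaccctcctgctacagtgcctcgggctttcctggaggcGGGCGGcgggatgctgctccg
DPPA5, minus strand, chr6:73354227-73354526: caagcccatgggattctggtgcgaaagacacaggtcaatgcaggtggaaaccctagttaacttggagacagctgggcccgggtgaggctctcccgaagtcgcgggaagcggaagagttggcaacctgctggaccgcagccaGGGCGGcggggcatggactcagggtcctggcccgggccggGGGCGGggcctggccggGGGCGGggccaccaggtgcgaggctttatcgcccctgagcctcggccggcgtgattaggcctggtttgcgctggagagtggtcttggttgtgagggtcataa
KHDC3L, plus strand, chr6:73362408-73362707: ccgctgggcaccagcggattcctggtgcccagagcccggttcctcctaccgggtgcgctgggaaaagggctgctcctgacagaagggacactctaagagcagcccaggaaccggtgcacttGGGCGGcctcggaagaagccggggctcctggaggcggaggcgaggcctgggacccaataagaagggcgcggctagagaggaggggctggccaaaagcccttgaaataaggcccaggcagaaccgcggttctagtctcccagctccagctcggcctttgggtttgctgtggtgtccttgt
OOEP, minus strand, chr6:73369848-73370147: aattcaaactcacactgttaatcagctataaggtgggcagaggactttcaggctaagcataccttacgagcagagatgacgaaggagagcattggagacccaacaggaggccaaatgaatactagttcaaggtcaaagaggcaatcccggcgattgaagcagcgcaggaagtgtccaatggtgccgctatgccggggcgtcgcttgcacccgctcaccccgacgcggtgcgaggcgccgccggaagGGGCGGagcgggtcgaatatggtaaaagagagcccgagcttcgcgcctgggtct

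GATC occurred once in the promoters of KHDC1L and of the upstream KHDC1 start and was not in the other 4 windows. Of 34961 listed promoters of the same length, 41.7% hold a GATC. A LAD window of 10 kb rests on marks over its whole length, so no match in a promoter says nothing about contact there. The GC box was found in 5 of the 6 promoters, with 3 matches each for DPPA5 and the upstream KHDC1 start, against 45.0% of all listed promoters with at least 1. KHDC1L stood apart in composition, with 3 CG dinucleotides and 42.7% G and C. The 5 other promoters held 16 to 32 CG dinucleotides and 57.0% to 71.7% G and C. The median over all listed promoters was 14 CG dinucleotides (quartiles 4 and 28) and 58.7% G and C (47.0% and 68.0%). The E-box CANNTG, on either strand, occurred in all but the internal KHDC1 promoter and in 68.7% of listed promoters. The CCAAT box, CCAAT or ATTGG, occurred in the KHDC1L, KHDC3L and OOEP promoters and in 34.6% of all. The octamer ATTTGCAT or ATGCAAAT, which POU factors bind, was in none of the 6 and in 1.77% of all.

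The cluster lay across the end of 1 long LAD, and the states differed in where that LAD ended. In naive cells the LAD ran from 70530001 to 73270000 on chromosome 6 (2.74 Mb), and in primed cells from 70720001 to 73380000 (2.66 Mb). The primed list thus reached 110 kb, or 11 windows, further into the cluster. From the first base of KHDC1L to the last base of OOEP (73223544 to 73395163, 172 kb), naive LADs covered 27.1% and primed LADs 94.2%. Of the 18 windows the cluster touches, 5 were in LADs of both states, 12 in primed LADs only, 1 in neither and 0 in naive LADs only. The 12 primed-only windows were the 11 next to the shared part of the long LAD and a single one at 73390001 to 73400000, inside the annotated body of OOEP.

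**Figure D1:**
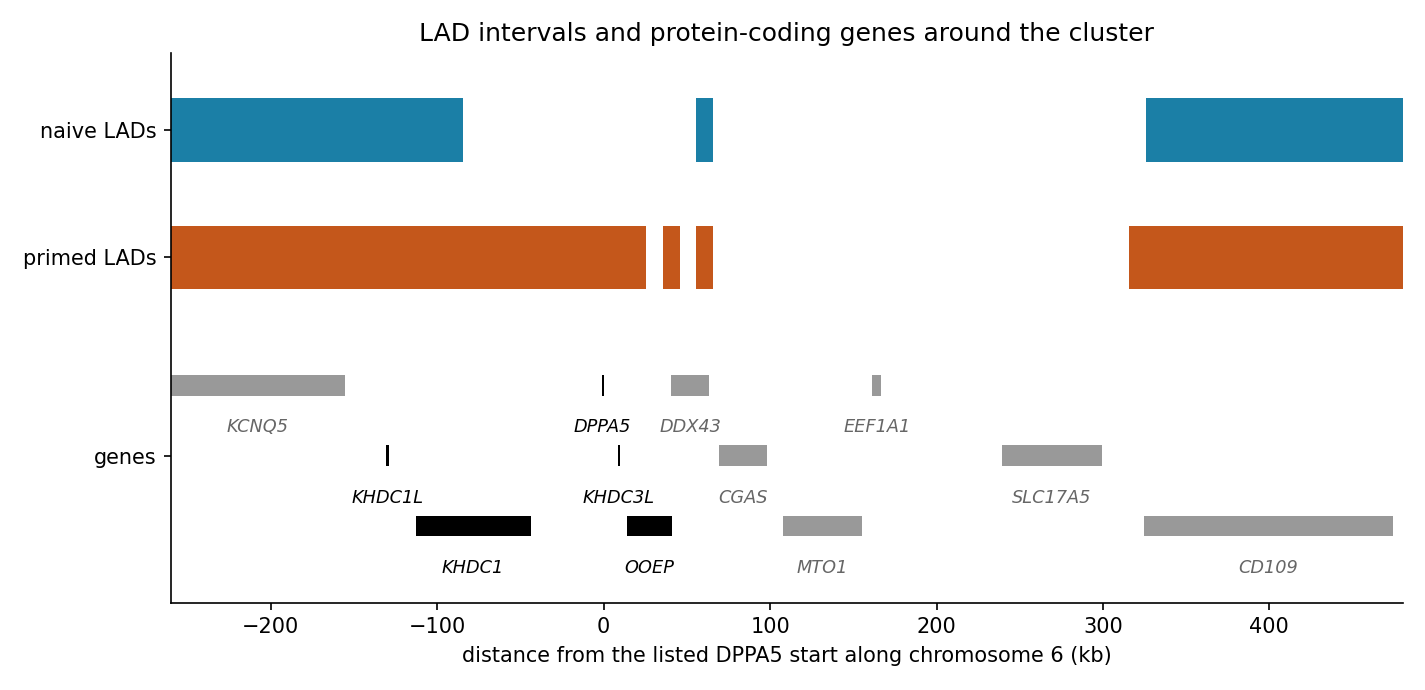
LAD intervals of the naive (blue) and primed (orange) lists and protein-coding genes (cluster members black, others grey) against distance in kb from the listed DPPA5 start. The naive LAD on the left ends within KHDC1, while the primed LAD goes on for a further 110 kb past DPPA5 and KHDC3L and ends within OOEP.

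The rule used these same intervals, so the covered shares of the members are a description of how they were chosen. A gene was assigned to a LAD where the intervals covered 50% or more of its body. By this measure the naive list held 1 of the 5 members and the primed list 5, so that 1 member was in both and 4 were in primed LADs only. Over all protein-coding genes, naive LADs held 18.9% and primed LADs 17.3%, with 15.4% in both, 1.89% in primed LADs only, 3.44% in naive LADs only and 79.3% in neither. The 4 are KHDC1, DPPA5, KHDC3L and OOEP. KHDC1L went against the description of the cluster as primed only, since it lay in LADs of both states.

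KHDC1L (73223544 to 73225496, 1.95 kb) was covered at 100% in both lists. It sits in a single window, and its start lies 44.5 kb inside the naive end of the long LAD and 155 kb inside the primed end. KHDC1 and KHDC1L, and the pseudogene KHDC1P1 beside them, are related copies, and the treatment of reads that fit several copies is not known.

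KHDC1 (73241314 to 73310378, 69.1 kb) was the member that the naive LAD end fell within. Naive LADs took in 41.5% of its body (28687 bases) and primed LADs 100%. Of the 8 windows it touches, the 3 with its lower coordinates, which hold the 3′ end of this minus-strand gene, were in LADs of both states and the other 5 in primed LADs only. Its 2 listed starts fell on opposite sides of the naive end. The internal start, at 73263196, was 6.80 kb inside the naive LAD, and the upstream start, at 73310159, was 40.2 kb outside it. In primed cells both starts were inside, by 117 and 69.8 kb.

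DPPA5 (73353063 to 73354276, 1.21 kb) had no base in a naive LAD and all of its bases in a primed one, 0% against 100%. Its start was 84.3 kb beyond the naive end of the long LAD and 25.7 kb inside the primed end. The nearest naive LAD of any length was a single window 55.7 kb away, on the far side of the gene.

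KHDC3L (73362658 to 73364171, 1.51 kb) had the same shares, 0% in the naive list and 100% in the primed list. It is the only member on the plus strand. Its start was 92.7 kb beyond the naive end and 17.3 kb inside the primed end, and the nearest naive LAD was 45.8 kb away. DPPA5 and KHDC3L were 2 of 116 protein-coding genes (0.581% of all) that lay wholly inside primed and wholly outside naive LADs.

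OOEP (73368555 to 73395163, 26.6 kb) had 0% of its body in naive LADs and 62.4% in primed LADs. The primed LAD ended within its annotated body, which touches 4 windows. Of these 4, 3 were in primed LADs and the window at 73380001 to 73390000 was in no LAD of either state. The single listed start of OOEP, at 73369897, lay 10.1 kb inside the primed LAD. The stretch from that start to the 3′ end of the gene (1.34 kb) lay wholly in the primed LAD, at 100%, and at 0% in the naive list. The rest of the annotated body lies upstream of that start.

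The calls of 4 members held under each of 5 ways of joining or filtering the LADs, namely joining LADs less than 50 or 100 kb apart, leaving out LADs under 50 or 100 kb, and joining at 50 kb before leaving out LADs under 100 kb. These 4 were KHDC1L, KHDC1, DPPA5 and KHDC3L. None of the 5 settings could have moved them, so that they held is no support for the calls. The long LAD, at 2740 kb in naive and 2660 kb in primed, is above both length limits. The naive gap beyond it, at 140 kb, is wider than both joining limits. OOEP held its call under 3 of the 5. Its primed share was 43.0% without LADs under 50 or 100 kb, because the single primed window at 73390001 then dropped out, and 100% where LADs were joined. The members nearest the 50% line were KHDC1 at 41.5% in naive and OOEP at 62.4% in primed. Asking for any overlap in place of 50% put KHDC1 in LADs of both states. Its internal start was in LADs of both states too, so its call also depends on which start is taken.

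**Figure D2:**
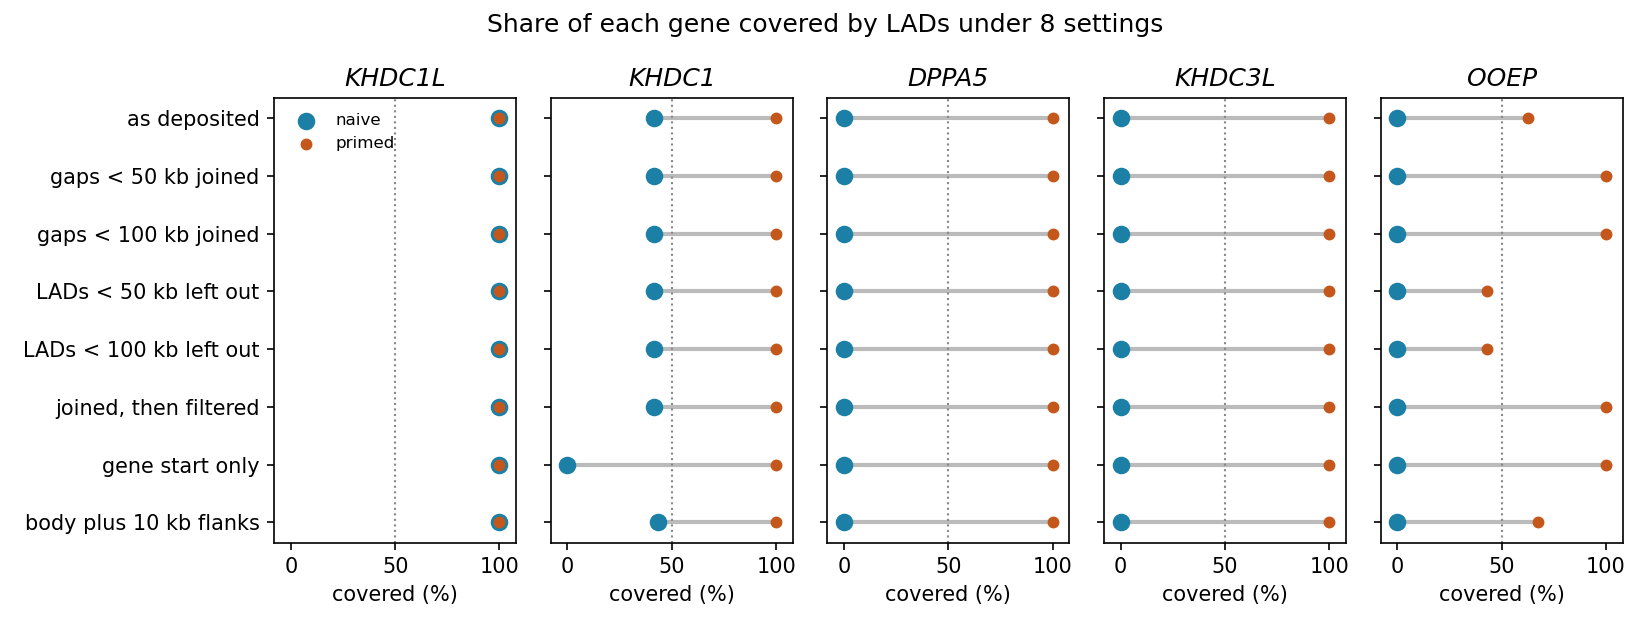
Percent of each member covered by naive (large blue points) and primed (small orange points) LADs under 8 settings, with the 50% line dotted; "gene start only" places the most upstream listed start. KHDC1L is at 100% in both states throughout, and DPPA5 and KHDC3L are at 0% and 100%. The joined or filtered settings could not have moved KHDC1L, KHDC1, DPPA5 or KHDC3L. Among these settings only OOEP moves across the line, to 43.0% in primed without short LADs. The internal KHDC1 start, inside LADs of both states, is not among the settings.

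The difference stopped within a short distance on both sides. Over the 1 Mb below the cluster both lists covered 100%. KCNQ5, a potassium channel gene in this span, and RIMS1, a synaptic active zone gene that reaches into it, were at 100% in both states. Over the 100 kb above the cluster, naive LADs covered 10 kb and primed LADs 14.8 kb. Both lists had a single LAD window at 73410001 to 73420000. Beyond it came a stretch free of LADs in both states, 260 kb long in naive and 250 kb in primed. It held CGAS, which encodes a sensor of cytosolic DNA, MTO1, of mitochondrial tRNA modification, EEF1A1, the translation elongation factor, and SLC17A5, a lysosomal sialic acid transporter. Each of these 4 was covered at 0% in both states. The next long LAD began at 73680001 in naive and 73670001 in primed, so the states were 10 kb apart there and 110 kb apart at the cluster. CD109, which encodes a membrane-anchored surface protein, lay in it at 99.5% in naive and 100% in primed.

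DDX43, a DEAD-box helicase gene that overlaps the upstream end of OOEP, was the only non-member of the 8 protein-coding neighbours within 1 Mb that was in primed LADs only. Its share was 33.3% for naive LADs and 56.0% for primed LADs, and both came from LADs of a single 10 kb window. The other 7 comprised 3 in LADs of both states and 4 in neither. Over the 1 Mb on both sides together the lists covered 86.3% in naive and 87.0% in primed, and over chromosome 6 as a whole 59.6% and 57.0%. The cluster was thus more covered in primed while the chromosome was more covered in naive. The far end of the same long LAD also ran the other way. There the naive interval began at 70530001 and the primed interval at 70720001, 190 kb apart. Whether other primed LADs lie within those 190 kb was not examined.

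Of the annotated genes of any kind, 8 lay wholly inside the 110 kb primed-only stretch. DPPA5 and KHDC3L were its 2 protein-coding genes. The others were 5 pseudogenes and the long non-coding RNA gene C6orf147, which overlaps KHDC1 and was picked for mention after its values were seen.

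Across the genome, 926 primed-only stretches had windows shared by both states at 1 end and none at the other, as the stretch over the cluster has. Their median length was 10 kb and the longest was 490 kb. At 110 kb the stretch over the cluster was longer than 98.7% of them, 6 were longer and 6, itself included, had the same length. Naive-only stretches of this kind numbered 1495, with a median of 20 kb, and 68 of them were longer than 110 kb. The cluster was chosen for its difference, so its place among these stretches is a description.

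**Figure D3:**
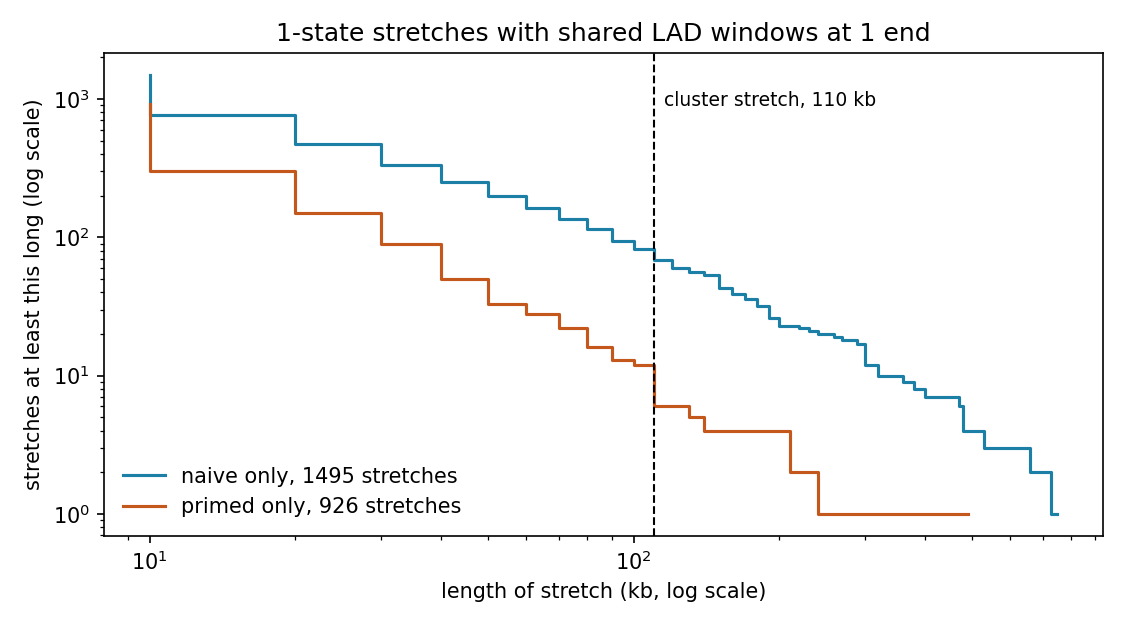
Number of stretches (log scale) that are at least as long as the length on the horizontal axis (kb, log scale), for stretches in LADs of 1 state that have shared LAD windows at 1 end only. The dashed line marks the 110 kb stretch over the cluster, than which 6 primed-only and 68 naive-only stretches were longer.

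Other oocyte genes were counted in 3 lists, the subcortical maternal complex with oocyte NLRP genes (14 genes), the DPPA genes (4) and a list of oocyte and zygote genes (26). Of the 14 genes of the first list, naive LADs held 1 and primed LADs 3, beside 18.9% and 17.3% of all protein-coding genes. The difference between the states was made by the members KHDC3L and OOEP. Without them 1 of 12 lay in LADs of each state, namely NLRP14 on chromosome 11, covered at 100% in both. NLRP5, TLE6 and PADI6, the best known partners of OOEP and KHDC3L, were covered at 0% in both. Of the 14 genes, 9 are on chromosome 19. The median covered share was 0% in both states for this list and for all protein-coding genes.

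Of the DPPA genes, DPPA2 lay at the end of a long LAD too, at 71.3% in naive and 100% in primed. The end of that LAD was at 109310000 on chromosome 3 in naive and at 109320000 in primed, 1 window apart. Its partner gene DPPA4 and the maternal factor gene DPPA3 were covered at 0% in both states.

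Of the 26 oocyte and zygote genes, naive LADs held 7 and primed LADs 6, with 5 in both, 2 in naive only, 1 in primed only and 18 in neither, where the shares over all protein-coding genes are 18.9%, 17.3%, 15.4%, 3.44%, 1.89% and 79.3%. The 5 in both were LHX8 and NOBOX, transcription factors of early follicles, ZP4, of the egg coat, OOSP2, an oocyte-secreted protein gene, and BTG4, of maternal mRNA clearance. SOHLH2, a germ cell transcription factor gene on chromosome 13, was at 0% in the naive and 100% in the primed list, as DPPA5 and KHDC3L were, and lay in a primed LAD of 270 kb. MOS, the kinase gene of meiotic arrest on chromosome 8, went the other way, at 100% in naive and 0% in primed, and ZAR1L on chromosome 13 was at 54.0% and 0%. The naive LADs at MOS and ZAR1L were 20 kb long. SOHLH2 held its call under all 5 joined or filtered settings, ZAR1L under 3 and MOS under 2. Of the 5 genes in both, OOSP2 held its call under 3 of the settings and the other 4 under all 5.

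**Figure D4:**
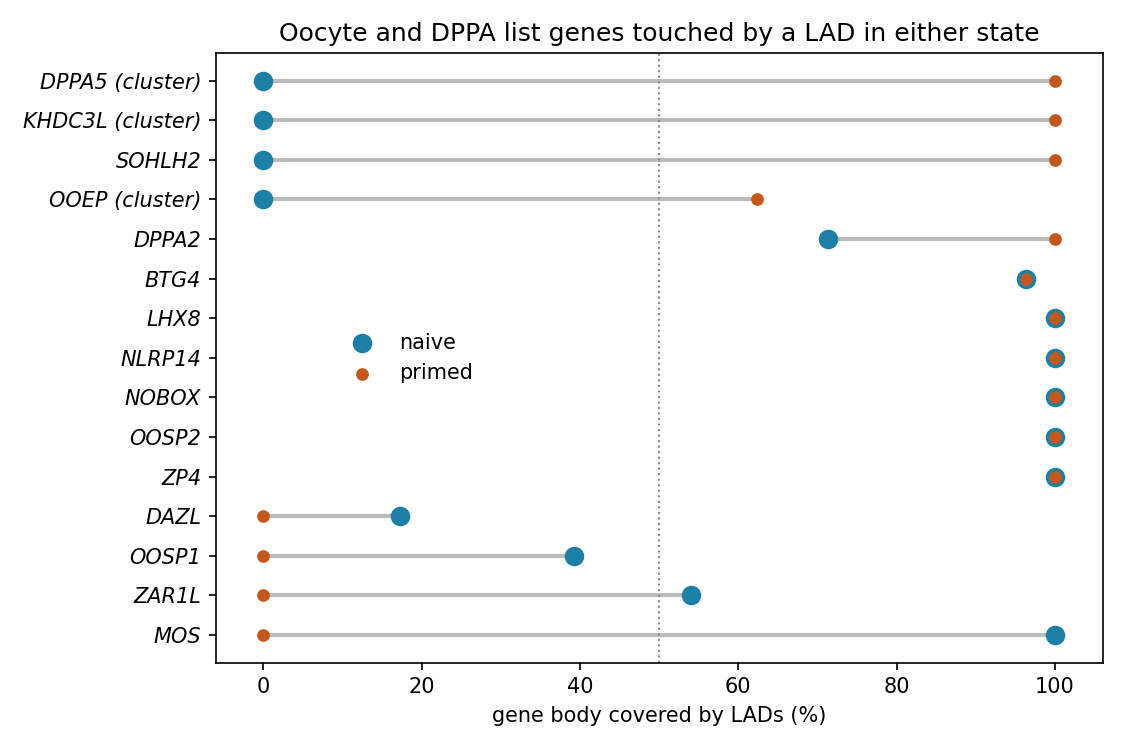
Percent of the gene body covered by naive (large blue points) and primed (small orange points) LADs for genes of the 3 lists touched by a LAD in either state, with the 50% line dotted. SOHLH2 is at 0% and 100% as DPPA5 and KHDC3L are, MOS is at 100% and 0%, and 6 genes lie at the same share in both states.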

How the data were processed

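The deposited files give, per state, a list of LAD starts and ends in bases, which is not a signal or count. Per the submitters' processing notes, BWA, SAMtools 1.10, SICER and hg38 were used. How these tools were set, and how LMNB1 and Dam-only libraries were put together, is not stated in any source used. The labels call the lists final and the files used here are named simple; what sets them apart is not known. Each interval boundary fell on a multiple of 10 kb.

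Genes came from RefSeq (GRCh38.p14, whose primary assembly is that of hg38), and promoters from its table, which lists starts for 79.2% of protein-coding genes and for all 5 members. Covered shares were computed from the intervals, with coordinates 1-based. The members and lists were chosen with earlier results of these data known. Named are all members, all protein-coding genes within 1 Mb, list genes with at least 50% of the body in a LAD, and genes in runs of at least 3 adjacent primed-only genes, of which only runs of 5 or more are described. That limit, and the list genes named at 0% in both states, were chosen after their values were seen. The functions were tested on simulated data, where 200 genes lost all their windows from a copy of the primed list. Among 19974 genes, 200 of 200 switched genes were recovered, with 0 called outside the switched windows. This outcome follows from the setup, so it checks the code and says nothing about the calls on the real lists. The work used matplotlib 3.10.9, SciPy 1.17.1, pandas 2.3.3 and numpy 2.4.6 under Python 3.11.15.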

Additional observations from a re-analysis of the deposited data

How the results depend on the processing

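The counts of members, of primed-only genes and of the genes of all 3 lists together, and the covered shares of the cluster and its 1 Mb flanks, were recomputed with LADs joined or filtered, and the counts also with another share of the gene body or the gene start alone. Members in naive LADs went from 1 to 2 with any overlap, through KHDC1. The primed share of the cluster went from 94.2% to 100% in each of the 3 settings that joined LADs. Oocyte list genes in naive LADs fell from 9 to 4 with the gene start alone, which is listed for 35 of the 44. Members in primed LADs only numbered 4, and 3 with any overlap, with at least 90%, and without LADs under 50 or 100 kb. The other counts named here stayed within 1.5 times of their value as deposited, with primed-only genes from 262 to 500 against 378. The naive share of the cluster stayed at 27.1% in all joined or filtered settings, none of which could have moved it. Without LADs under 50 or 100 kb its primed share was 91.2%. The flanks were at 85.8% to 86.3% in naive and 86.3% to 87.5% in primed. The run of genes at the cluster, described below, went from 5 to 3 without LADs under 50 or 100 kb. Counts of windows, neighbours, stretches and single lists were not recomputed. No paired analysis was possible because each state has 1 list that does not keep the libraries apart, and for the same reason no replicate could be left out. A window outside LADs may lack contact, GATC or mappable sequence, and the lists do not separate these.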

Other observations

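Runs of adjacent protein-coding genes that all lay in primed LADs only were counted, and naive-only runs were not. There were 16 runs of at least 3 genes, with 64 of the 378 primed-only genes, and 6 of the runs held 5 or more. The run at the cluster held 5 genes, KHDC1, DPPA5, KHDC3L, OOEP and DDX43. It held 3, without OOEP and DDX43, once LADs under 50 or 100 kb were left out, an alternative chosen after seeing the data, and 5 where LADs were joined. The longest run held 7 genes, also on chromosome 6 (143450805 to 144095573), among them the imprinted zinc finger gene PLAGL1 and the peroxisome gene PEX3. A run of 6 on chromosome 4 (127781796 to 128222926) held PLK4, the kinase gene of centriole duplication. The 3 other runs of 5 lay on chromosomes 1, 4 and 13. The run on chromosome 1 consisted of 5 olfactory receptor genes of the OR2T group. The run on chromosome 13 (35768652 to 36370180) held SOHLH2 with DCLK1, CCDC169 and SPART, and its read-through gene CCDC169-SOHLH2 overlaps both namesakes, so these are fewer loci than genes.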
